A study of Arabidopsis thaliana with 12 samples.

Results

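The 12 genes described here gave low signals in well-watered Arabidopsis thaliana seedlings and high signals after days at low water potential. They were chosen by their signal on an expression array: below 200 on all 6 arrays of seedlings at -0.25 MPa, and above 600 on all 6 arrays at -1.2 MPa, in both genotypes. Of 22810 probe sets on the array, 50 met both limits, and 23 of these have 1 gene in the platform annotation, out of 13513 that do. The other 27 have no gene in it (26) or several (1). Of the 23, 11 were left out: 8 by name, among them SAG29, THI2.1, AT5MAT and UF3GT, and 3 as genes of late embryogenesis abundant (LEA) or cold-regulated (COR) proteins, LEA4-5, COR15A and AT3G17520, the last by its locus and not by its symbol. The 12 that remained were the starch synthesis genes APL3 and APL4, the sugar transporter SWEET4, the vacuolar protease BETA-VPE, the ubiquitin ligase PUB19, and AT1G57590, AT1G67920, AT1G73040, AT2G41190, AT3G05640, AT4G02360 and AT5G22460, for which the tables used here give no name beyond the locus.

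The study compared the wild type, accession Col-0, with hai1-2, a Col-0 line mutated at At5g59220, the gene of the clade A protein phosphatase HAI1. Seedlings 7 days old were moved to fresh control plates at -0.25 MPa or to agar plates infused with polyethylene glycol at -1.2 MPa, and whole seedlings were collected after 96 h. Each of 3 independent experiments gave 1 array to each of the 4 groups, which are Col-0 and hai1-2 at -0.25 MPa, called control below, and Col-0 and hai1-2 at -1.2 MPa, called stressed. All plates lacked sugar and stood in continuous light, a single mutant allele was used, and the number of seedlings per sample is not given in the sources used here.

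Polyethylene glycol of high molecular weight cannot enter plant cells and lowers the water potential of the medium, so that roots must draw water against it as they do in drying soil. Plants answer with abscisic acid (ABA), a hormone whose receptors, when bound, block clade A phosphatases such as HAI1 and thereby release the SnRK2 kinases that switch on stress genes. Over days at low water potential, seedlings also adjust osmotically, by accumulating sugars, proline and other solutes. Whole seedlings were profiled, so fewer cells of a type and less RNA per cell cannot be told apart in any value below.

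The arrays were close to each other, with median signals between 195 and 212 and correlations of log2 values between pairs of arrays from 0.915 to 0.982. The annotation used here names no probe set for HAI1, so the genotype was not checked by that gene's name. One probe set without a gene in it, 247723_at, was the only one of all tested that passed between stressed hai1-2 and Col-0, at 2602.7, 3125.0 and 3173.5 in Col-0 and 373.3, 256.3 and 349.2 in hai1-2 (-3.13 ± 0.19, adjusted p = 4.2e-06, limma). The groups lie far apart, and which gene it measures was not settled here. All 4 shoot markers (PSAN, LHCB4.1, LHCB4.2 and LHCB4.3) and all 3 root markers (PYK10, EXPA7 and EXPA18) that could be named were read, and the deposited values carry no detection calls. The summed signal of the shoot markers was 45434 to 64830 on control arrays and 26733 to 33917 on stressed arrays, and that of the root markers 14764 to 18260 and 16036 to 23401. All 4 shoot markers fell in both genotypes (adjusted p up to 0.0161 in Col-0 and 0.00201 in hai1-2, limma). Of all tested, 16.1% fell in Col-0 and 17.8% in hai1-2. The root sum is mostly PYK10, which stood at 0.18 ± 0.13 in Col-0 (adjusted p = 0.333) and rose by 0.40 ± 0.13 in hai1-2 (adjusted p = 0.0316). EXPA7 rose by 2.34 ± 0.34 and 1.85 ± 0.34, and EXPA18 by 1.41 ± 0.35 and 1.24 ± 0.35. The part of these shifts in the values below was not tested.

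**Figure D1:**
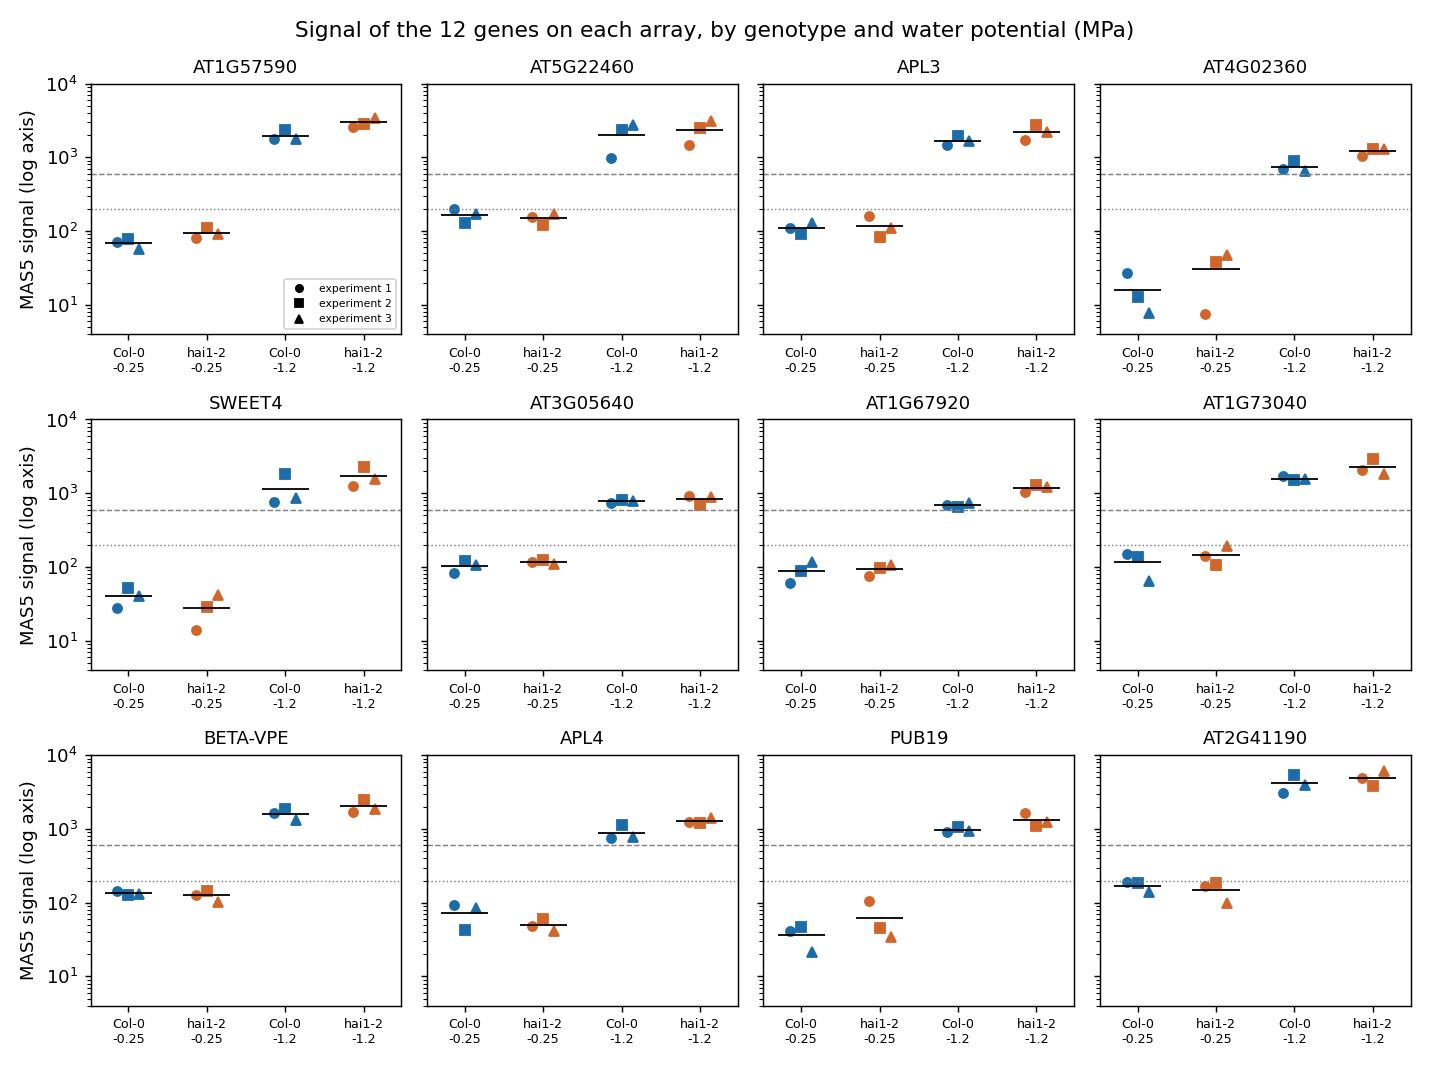
MAS5 signal (log axis) of each of the 12 genes on each of the 12 arrays, by genotype and water potential in MPa, with the mean of 3 arrays as a bar and the experiment as the symbol. The dotted and dashed lines are the limits of 200 and 600 that chose the genes, so the gap between the lines is empty by choice.

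The values that follow chose the genes, so they describe them and are not tested. Signals are MAS5 intensities on a linear scale, given for experiments 1, 2 and 3 in that order, and levels of different genes are not comparable, since each probe set has its own response. Changes are differences of mean log2(signal + 16) with the standard error (SE) of the fit, and are understated where the control signal is weak.

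APL3 and APL4 encode large subunits of ADP-glucose pyrophosphorylase, the enzyme that makes the glucosyl donor for starch. APL3 (probe set 252888_at, AT4G39210) stood at 110.6, 90.1 and 126.8 on the Col-0 control arrays and at 158.6, 83.0 and 110.3 on those of hai1-2. On the stressed arrays it stood at 1489.6, 1928.3 and 1641.1 in Col-0 and at 1712.7, 2774.8 and 2208.8 in hai1-2. Both genotypes were highest in experiment 2 under stress, and the genotypes overlapped there and on control plates. The change was 3.77 ± 0.22 in Col-0 and 4.09 ± 0.22 in hai1-2 (SE, 3 arrays per group).

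APL4 (263544_at, AT2G21590) stood at 92.0, 42.5 and 83.8 on the Col-0 control arrays and at 48.4, 61.1 and 40.9 on those of hai1-2. Under stress its signals were 756.3, 1146.6 and 778.0 in Col-0 and 1230.8, 1225.7 and 1402.1 in hai1-2. All 3 stressed hai1-2 arrays lay above all 3 stressed Col-0 arrays, although in experiment 2 the genotypes nearly met. The change was 3.38 ± 0.23 in Col-0 and 4.31 ± 0.23 in hai1-2, and the mean stressed signal was 12.3 times the mean control signal in Col-0 and 25.7 times in hai1-2. The other subunits of the enzyme were not analysed here.

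SWEET4 (257271_at, AT3G28007) encodes a plasma membrane transporter of hexoses, of the SWEET family that lets sugars pass down their gradient. Its control signals were 27.8, 52.4 and 40.4 in Col-0 and 13.8, 28.2 and 41.8 in hai1-2, and its stressed signals were 758.0, 1827.5 and 867.9 in Col-0 and 1265.2, 2267.1 and 1542.6 in hai1-2. Both genotypes were highest by far in experiment 2 under stress, and within each experiment hai1-2 lay above Col-0. The change was 4.29 ± 0.33 in Col-0 and 5.29 ± 0.33 in hai1-2. With such weak control signals the size depends on the constant added before the log: in hai1-2 it was 5.96 with 1 added and 4.23 with 64 added.

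BETA-VPE (262644_at, AT1G62710) encodes a vacuolar processing enzyme, a cysteine protease that cuts the precursors of seed storage proteins in the vacuole. Control signals were 146.0, 126.3 and 130.3 in Col-0 and 128.4, 146.0 and 102.6 in hai1-2, and stressed signals were 1629.2, 1890.7 and 1307.4 in Col-0 and 1695.7, 2509.2 and 1858.3 in hai1-2. In both genotypes experiment 2 gave the highest stressed signal, and the genotypes overlapped. The change was 3.42 ± 0.19 in Col-0 and 3.84 ± 0.19 in hai1-2. Seed proteins were looked at beside it: of 20 loci of seed storage and oil bodies, 2 could be named on the array, the oleosin OLEO3 and the storage protein PAP85, and their summed signal was 58.8 to 125.2 on control arrays and 55.1 to 130.8 on stressed arrays. Those ranges overlap almost wholly. OLEO3 was tested and did not pass in either genotype (-0.27 ± 0.28, adjusted p = 0.495 in Col-0, and 0.11 ± 0.28, adjusted p = 0.790 in hai1-2, limma).

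PUB19 (264217_at, AT1G60190) encodes a U-box E3 ubiquitin ligase that dampens ABA responses. Control signals were 41.5, 46.2 and 21.7 in Col-0 and 104.5, 45.7 and 34.1 in hai1-2, so that 1 mutant array stood well above the other 5. Under stress the signals were 901.7, 1070.0 and 927.3 in Col-0 and 1630.4, 1089.6 and 1248.5 in hai1-2, and the same experiment 1 gave the highest mutant value. The 3 stressed mutant arrays lay above the 3 of Col-0, by a narrow margin in experiment 2. The change was 4.26 ± 0.29 in Col-0 and 4.2 ± 0.29 in hai1-2.

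Of the 7 genes given by locus alone, AT2G41190 (267080_at) and AT1G57590 (246403_at) had the widest gaps between control and stressed arrays. AT2G41190 had control signals of 190.2, 182.5 and 137.9 in Col-0 and 169.9, 183.0 and 99.1 in hai1-2, and stressed signals of 3036.0, 5468.3 and 3928.7 in Col-0 and 4878.2, 3853.2 and 6139.3 in hai1-2. Its lowest stressed array was 16 times its highest control array, and under stress the genotypes changed order in experiment 2. Its change was 4.45 ± 0.25 in Col-0 and 4.91 ± 0.25 in hai1-2. AT1G57590 had control signals of 70.1, 78.0 and 57.6 in Col-0 and 79.8, 111.1 and 91.8 in hai1-2, and stressed signals of 1778.0, 2317.3 and 1767.9 in Col-0 and 2599.0, 2874.5 and 3451.0 in hai1-2. It was the one of the 12 genes whose 3 mutant arrays lay above the 3 wild-type arrays on control plates as well as under stress, and its change was 4.54 ± 0.17 in Col-0 and 4.76 ± 0.17 in hai1-2.

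AT4G02360 (255527_at) and AT1G67920 (260005_at) were nearest to the upper limit among the 12. AT4G02360 had control signals of 27.0, 12.9 and 7.8 in Col-0 and 7.4, 37.7 and 47.4 in hai1-2. Under stress it stood at 687.1, 904.6 and 651.0 in Col-0 and at 1050.7, 1316.1 and 1314.4 in hai1-2, without overlap. Its change on the log2 scale was 4.61 ± 0.32 in Col-0 and 4.84 ± 0.32 in hai1-2, and in Col-0 it ranged from 5.62 with 1 added before the log to 3.34 with 64 added. AT1G67920 stood at 61.4, 87.0 and 117.3 in Col-0 and 76.0, 95.9 and 107.5 in hai1-2 on control plates, and at 691.6, 649.1 and 738.3 in Col-0 and 1030.1, 1303.9 and 1219.4 in hai1-2 under stress. The genotypes overlapped on control plates and were clearly apart under stress, with the 3 Col-0 values close together. The change was 2.79 ± 0.20 in Col-0 and 3.46 ± 0.20 in hai1-2.

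AT1G73040 (262357_at) had control signals of 151.5, 135.5 and 64 in Col-0 and 140.2, 105.9 and 194.3 in hai1-2, the last close to the lower limit. Its stressed signals were 1718.4, 1490.2 and 1535.7 in Col-0 and 2094.1, 2929.2 and 1806.9 in hai1-2, which do not overlap, and the change was 3.65 ± 0.27 in Col-0 and 3.82 ± 0.27 in hai1-2. AT5G22460 (249917_at) had control signals of 197.6, 127.2 and 168.5 in Col-0 and 155.5, 122.7 and 170.8 in hai1-2, and stressed signals of 973.1, 2330.3 and 2720.4 in Col-0 and 1468.0, 2501.2 and 3153.7 in hai1-2. Both genotypes were low in experiment 1, and its lowest stressed array was 4.92 times its highest control array, the narrowest gap of the 12. The change was 3.38 ± 0.34 in Col-0 and 3.79 ± 0.34 in hai1-2. AT3G05640 (258901_at) had control signals of 82.4, 119.4 and 107.5 in Col-0 and 115.7, 123.4 and 108.0 in hai1-2, and stressed signals of 743.8, 820.1 and 788.1 in Col-0 and 906.8, 680.8 and 896.0 in hai1-2. It varied least under stress, its highest stressed array being 1.33 times its lowest, against 1.81 to 3.24 times for the other 11 genes, and its change was 2.76 ± 0.16 in Col-0 and 2.67 ± 0.16 in hai1-2.

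Over the 12 genes the change had a median of 3.71 in Col-0, in a range of 2.76 to 4.61, and of 4.14 in hai1-2, in a range of 2.67 to 5.29, against medians of 0.07 in Col-0 and 0.07 in hai1-2 over all 17059 probe sets tested. The lowest of these values belong to AT3G05640 in both genotypes, and the highest to AT4G02360 in Col-0 and SWEET4 in hai1-2. All 12 are above 0 by choice, as were 54.9% of all tested in Col-0 and 54.9% in hai1-2, where 34.2% and 37.6% passed the test in either direction. AT5G22460 and AT1G73040 lie just inside the lower one, with control signals of up to 197.6 and 194.3, and AT1G33265 and DFR just outside it, with up to 217.8 and 245.5. AT1G67920 and AT4G02360 lie just inside the upper one, with stressed signals from 649.1 and 651.0, and AT4G18280 and AT3G13672 just outside it, with signals from 596.3 and 582.1. With limits of 250 and 500 the same rule gives 24 genes, and with limits of 150 and 800 it gives 3.

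The first test asked whether the mutant expressed the 12 genes differently from the wild type under stress, a contrast that the rule did not use, apart from its limits on the range of the values. No gene of the 12 passed (limma, adjusted over 17059 probe sets), while all 12 differences pointed to higher signal in hai1-2. Over all probe sets tested, 0.00586% passed in this comparison, which is 247723_at alone. At an unadjusted p under 0.05 there were 4 of the 12, and 953 of all tested. The median difference of the 12 was 0.46 on the log2 scale, from 0.07 to 0.75, against -0.01 over all tested, of which 48.1% were above 0.

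AT1G67920 had the largest difference, 0.75 ± 0.20 (SE, 3 arrays per group, 95% interval 0.34 to 1.17, adjusted p = 0.584). AT4G02360 followed at 0.71 ± 0.32, SWEET4 at 0.62 ± 0.33, AT1G57590 at 0.60 ± 0.17 and APL4 at 0.54 ± 0.23. AT1G73040 stood at 0.49 ± 0.27, PUB19 at 0.43 ± 0.29, APL3 at 0.38 ± 0.22, BETA-VPE at 0.32 ± 0.19, AT5G22460 at 0.30 ± 0.34 and AT2G41190 at 0.27 ± 0.25. AT3G05640 was nearest to no difference, at 0.07 ± 0.16, with a 95% interval of -0.28 to 0.42. The intervals of AT1G67920, AT1G57590, APL4 and AT4G02360 leave out 0, and those of the other 8 genes hold it. They come from a fit with no term for experiment, so spread shared by same-numbered arrays is left in them. With the experiment as a block, none of the 12 passed either (lowest adjusted p = 0.301, limma). Single arrays moved 8 of the differences by over 1.5 times or turned them. These fits have no term for experiment, so 1 array left out also leaves the experiments unequal between genotypes. Within experiments 1, 2 and 3 the difference of AT5G22460 was 0.59, 0.10 and 0.21, and that of SWEET4 0.73, 0.31 and 0.82. Without Col-0 stress replicate 1 the difference of AT5G22460 was -0.15, that of AT2G41190 0.07, that of SWEET4 0.38 and that of AT3G05640 0.03. Without hai1-2 stress replicate 1 it was 0.61 for AT5G22460, -0.0040 for AT3G05640 and 0.27 for PUB19. Without hai1-2 stress replicate 2 it was 0.21 for APL3, 0.16 for BETA-VPE, 0.30 for AT1G73040, 0.39 for SWEET4, 0.44 for AT2G41190 and 0.20 for AT3G05640. Without Col-0 stress replicate 2 it was 1.00 for SWEET4, 0.49 for AT2G41190 and 0.47 for AT5G22460, and without Col-0 stress replicate 3 it was 0.58 for AT5G22460 and 0.18 for BETA-VPE. Without hai1-2 stress replicate 3 it was 0.06 for AT5G22460, 0.11 for AT2G41190 and 0.0045 for AT3G05640. The differences of AT1G67920, AT4G02360, AT1G57590 and APL4 moved by less than that with any 1 array left out.

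The direction was counted within experiments too. In experiments 1 and 3 all 12 genes were higher in stressed hai1-2 than in stressed Col-0, by medians of 0.57 and 0.57, against 49.4% and 49.7% of all tested, and in experiment 2 it was 10 of 12, by a median of 0.31, against 45.9%. The 2 exceptions in experiment 2 were AT2G41190 at -0.50 and AT3G05640 at -0.26. The other 10 genes were thus higher in hai1-2 in all 3 experiments, as were 15.1% of all probe sets tested. In 6 genes, AT1G57590, AT4G02360, AT1G67920, AT1G73040, APL4 and PUB19, every stressed mutant array exceeded every stressed wild-type array, against 6.52% of all tested, and in none was it the reverse, against 7.59%. The 12 genes share the same 6 arrays, so these counts are not 12 independent observations.

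Probe sets within the same limits that are not among the 12 were set beside them. Of the 11 genes left out by name or family, 9 had a difference above 0, with a median of 0.58 and a range of -0.18 to 1.21, and none passed. Of the 27 probe sets without a single gene, 22 did, with a median of 0.27 and a range of -0.35 to 1.10, and none passed. Most differences were thus above 0 in these other probe sets too. Of 2 signs of RNA integrity, 1 moved with the same groups. The ratio of 5' to 3' GAPDH signal was 0.756 to 0.952 on stressed Col-0 arrays and 1.05 to 1.16 on stressed hai1-2 arrays, without overlap. That of actin overlapped, at 0.353, 0.564 and 0.303 on stressed Col-0 arrays and 0.462, 0.516 and 0.391 on stressed hai1-2 arrays. The part of RNA integrity in the differences was not tested.

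**Figure D2:**
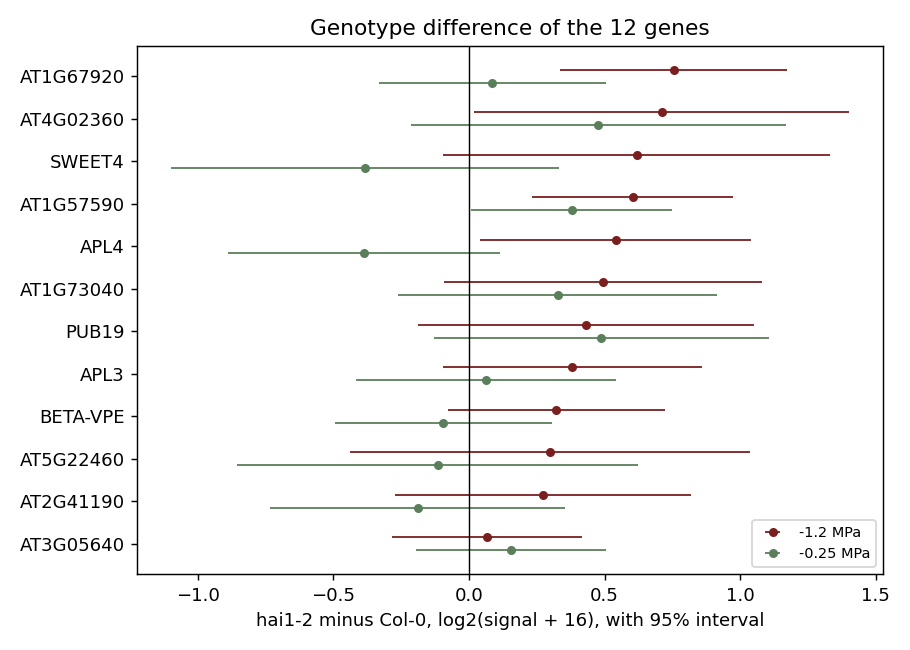
Difference between hai1-2 and Col-0 in log2(signal + 16) for each of the 12 genes, at -1.2 MPa (dark red) and at -0.25 MPa (green), with 95% intervals of the limma fit. At -1.2 MPa all 12 points lie to the right of 0, from 0.07 to 0.75, and at -0.25 MPa they lie on both sides, from -0.39 to 0.49.

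At -0.25 MPa the comparison asked whether the low signals differed between genotypes. None of the 12 genes passed there (limma, 0% of all 17059 tested passed), 1 of them and 546 of all tested had an unadjusted p under 0.05, and the differences went both ways, 7 above 0 and 5 below, with a median of 0.07 against -0.02 over all tested. That 1 gene was AT1G57590, at 0.38 ± 0.17, where all 3 mutant arrays exceeded all 3 of Col-0, as in 2.88% of all tested, and in no gene was it the reverse, as it was in 3.53%. PUB19 stood at 0.49 ± 0.29 and AT4G02360 at 0.48 ± 0.32, while APL4 and SWEET4 stood at -0.39 ± 0.23 and -0.38 ± 0.33. On the control arrays alone AT4G02360 and SWEET4 lie below the filter on weak probe sets, at a mean log2 of 5.19 and 5.6 against 5.67, so they entered this comparison and the interaction only through their stressed signals. The highest of the 6 control arrays was 1.42 times (BETA-VPE) to 6.41 times (AT4G02360) the lowest.

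The interaction asks whether the response itself differed in size between genotypes. No gene of the 12 passed (limma, 0.00586% of all tested passed), 2 of the 12 and 732 of all tested had an unadjusted p under 0.05, and 10 of the 12 estimates were above 0, as were 50.6% of all tested. The median was 0.37 on the log2 scale, against 0.00 over all tested, and 0.23 without Col-0 stress replicate 1. SWEET4 had the largest estimate, 1.00 ± 0.47 (95% interval -0.01 to 2.01, adjusted p = 0.990), followed by APL4 at 0.93 ± 0.33 (0.22 to 1.64, adjusted p = 0.990) and AT1G67920 at 0.67 ± 0.28 (0.08 to 1.26, adjusted p = 0.990). For SWEET4 and APL4 a lower control mean in the mutant adds to a higher stressed one, while for AT1G67920 the control signals were close. Neither control difference passed (adjusted p = 0.999 for SWEET4 and for APL4, limma), and the control arrays of the genotypes overlapped. Over the alternative settings with all arrays, the interaction estimate of SWEET4 ran from 0.75 to 1.22. The 2 estimates below 0 were those of AT3G05640 and PUB19, at -0.09 ± 0.23 and -0.06 ± 0.41.

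The stressed arrays were next compared between the 3 experiments, with genotype as a term. Of the 12 genes, 2 differed (limma moderated F test, adjusted over 17059 probe sets), against 0.92% of all tested. AT5G22460 was higher in experiments 2 and 3 than in experiment 1, by 1.00 and 1.28 on the log2 scale (adjusted p = 0.00678), in both genotypes. SWEET4 was higher in experiment 2 than in experiment 1 by 1.04, and in experiment 3 by 0.24 (adjusted p = 0.0217), again in both genotypes. Both calls were lost without the filter on weak probe sets (adjusted p = 0.0770 for AT5G22460 and 0.154 for SWEET4) and without the variance trend (0.0940 and 0.148), and that of SWEET4 without Col-0 stress replicate 2 (0.0878). AT2G41190 passed without hai1-2 stress replicate 2 (0.0280), and stood at 0.781 with all arrays. The other genes stood at adjusted p = 0.303 (APL3) to 0.887 (AT3G05640).

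The single stressed arrays were compared gene by gene. On Col-0 stress replicate 1 every one of the 12 was below its own mean over the 6 stressed arrays, by 0.43 on average on the log2 scale, while 53.5% of all tested were above theirs, and 6 of them had their lowest stressed value there, against 15.6%. On Col-0 stress replicate 3 it was 11 of 12, by 0.27 on average, with AT5G22460 as the exception, while 50.4% of all tested were above. On hai1-2 stress replicate 3, 11 of 12 were above their mean, all but AT1G73040, by 0.30 on average, against 51.9% of all tested. On hai1-2 stress replicate 2 it was 9 of 12, by 0.31 on average, against 47.1%, with 6 genes at their highest there, against 18%. AT3G05640, AT2G41190 and PUB19 were the 3 below their mean on the last array. Col-0 stress replicate 2 lay in the middle, at 0.02 on average, with 7 of 12 above their mean, against 51.5%, and so did hai1-2 stress replicate 1, at 0.07, with 8 of 12, against 52.1%. No gene of the 12 had its highest stressed value on a Col-0 array, where 51.6% of all tested had theirs. Over the 6 arrays 61 of 66 correlations between pairs of the 12 were above 0, with a median of 0.61. Genotype and experiment were not removed first, so these correlations include the shifts of single arrays given above. The share among other probe sets was not counted. The lowest correlation was -0.43, between AT3G05640 and AT1G73040, while AT3G05640 stood at 0.74 with AT2G41190.

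**Figure D3:**
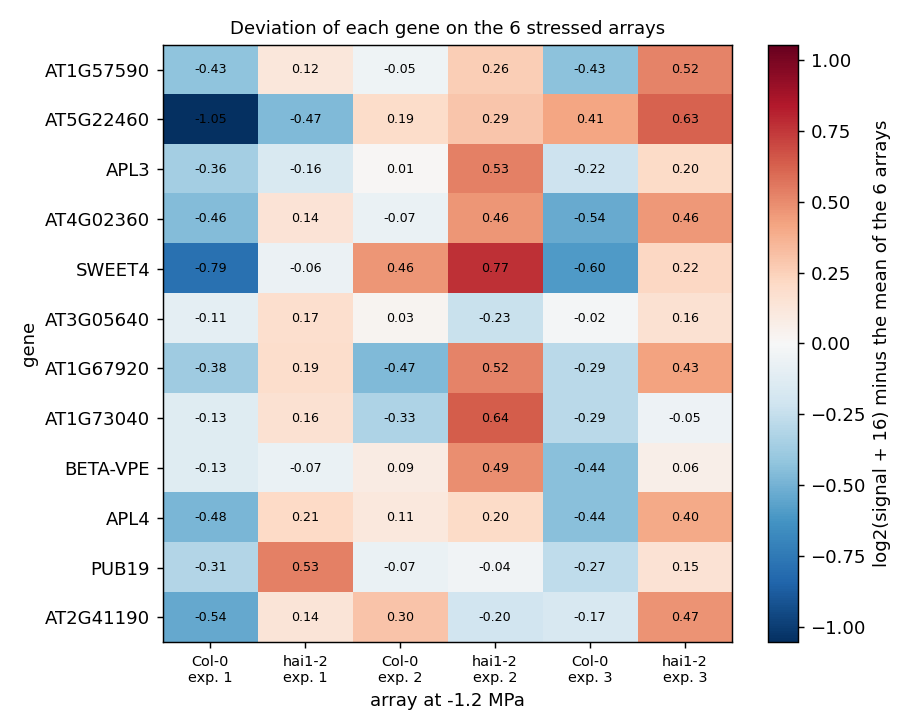
Deviation of each of the 12 genes (rows) on each of the 6 arrays at -1.2 MPa (columns, by experiment and genotype), as log2(signal + 16) minus the gene's mean over the 6 arrays, with the value printed in each cell. The column of Col-0 in experiment 1 is below 0 throughout, and AT5G22460 and SWEET4 carry the widest spread between experiments, from -1.05 to 0.63 and from -0.79 to 0.77.

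SWEET4, BETA-VPE and PUB19 belong to families with other genes on the array, whose responses could be tested. Of SWEET genes, 15 besides SWEET4 were measured, 10 of them strongly enough for the test, and 3 rose and 4 fell in Col-0, with 4 rising and 4 falling in hai1-2. Over all probe sets tested, 18.1% rose and 16.1% fell in Col-0 and 19.9% rose and 17.8% fell in hai1-2 (limma). The family was chosen after the 12 genes were known. One other SWEET gene meets both limits, SAG29 (SWEET15), which the rule leaves out, and its rise of 7.07 in Col-0 and 6.71 in hai1-2 is counted above although the limits required it.

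SWEET13 and SWEET14, which export sucrose, rose in both genotypes. SWEET13 went from 112.6 to 155.9 on control arrays (median 127.0) to 312.5 to 446.3 under stress (median 419), a rise of 1.48 ± 0.17 in Col-0 (adjusted p = 1.5e-05) and 1.55 ± 0.17 in hai1-2 (adjusted p = 8.4e-06, limma). SWEET14 rose by 1.46 ± 0.35 and 1.57 ± 0.35, from a median of 46.7 to one of 183. SWEET1, a glucose transporter, rose in hai1-2 by 1.35 ± 0.22 (adjusted p = 3.1e-04), and in Col-0 stood at 0.46 ± 0.22 (adjusted p = 0.127, and 0.0463 with the experiment as a block). The difference between these responses did not pass its own test (interaction adjusted p = 0.990).

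The SWEET genes that fell include 2 of the vacuole membrane and 1 of phloem loading. SWEET11, which exports sucrose for loading into the phloem, fell from 4729.3 to 5825.0 (median 5002) on control arrays to 2201.2 to 2756.3 (median 2512) under stress, a change of -1.05 ± 0.12 in Col-0 and -1.01 ± 0.12 in hai1-2 (adjusted p = 1.7e-05 and 2.0e-05, limma). SWEET2 and SWEET16, transporters of the vacuole membrane, changed by -1.83 ± 0.28 and -1.52 ± 0.17 in Col-0 and by -1.90 ± 0.28 and -1.53 ± 0.17 in hai1-2, and SWEET10 by -2.01 ± 0.30 and -1.35 ± 0.30. SWEET17, which moves fructose across the same membrane, did not pass (-0.08 ± 0.21 in Col-0, adjusted p = 0.815, and -0.14 ± 0.21 in hai1-2). For the 4 that fell, as for SWEET13 and SWEET14, the 6 control and the 6 stressed arrays did not overlap. For SAG29 the limits required this. The share of all tested probe sets without such overlap was not counted. SWEET10 was weak, at 71.2 to 139.0 on control arrays and 6.1 to 36.0 under stress. On the stressed arrays alone SWEET10 lay below the filter, and it entered the test through its control signals. The change of SWEET10 in Col-0 ran from -2.97 to -1.08 over the alternative settings. No SWEET gene tested differed between hai1-2 and Col-0 under stress.

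**Figure D4:**
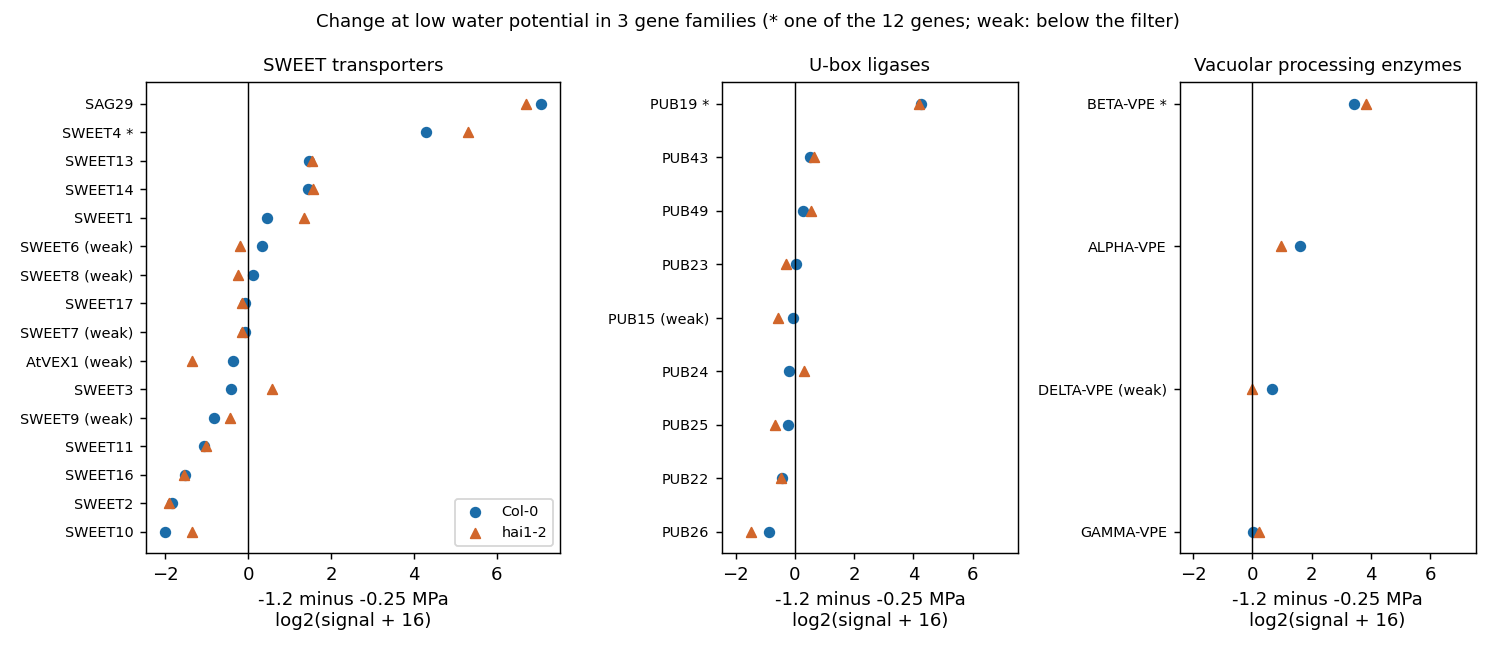
Change from -0.25 to -1.2 MPa in log2(signal + 16) of SWEET, U-box ligase and vacuolar processing enzyme genes. Blue circles are Col-0 and orange triangles hai1-2, as differences of means of 3 arrays. Only genes that the annotation names on a probe set of 1 gene are shown. The asterisk marks SWEET4, PUB19 and BETA-VPE, which were chosen for their change, and genes marked weak fell below the filter and were not tested.

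Of the 3 other vacuolar processing enzymes, 2 were tested, and 1 rose in Col-0 and none in hai1-2, where 18.1% and 19.9% of all tested rose. GAMMA-VPE, the main enzyme of vegetative tissue, stood at 3943.0 to 4730.2 on control arrays and 3660.3 to 5619.6 under stress, with overlapping ranges, and did not pass (0.01 ± 0.15 in Col-0, adjusted p = 0.959, with -0.049 under median centring, and 0.22 ± 0.15 in hai1-2, adjusted p = 0.255). ALPHA-VPE stood at 12.5 to 75.8 on control arrays and 76.3 to 151.5 under stress. On the control arrays alone its mean log2 lay just below the filter, so it entered the test through its stressed signals. It rose in Col-0 by 1.62 ± 0.41 (adjusted p = 0.00742, limma), and in hai1-2 stood at 0.98 ± 0.41 (adjusted p = 0.0749), passing with the experiment as a block (0.0384) and without hai1-2 control replicate 2 (0.0398). The responses of ALPHA-VPE were not shown to differ between genotypes (interaction -0.64 ± 0.58, adjusted p = 0.990). DELTA-VPE, of the seed coat, stood at 1.5 to 40.4 on all arrays and was below the filter.

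Of 8 other plant U-box ligases that the annotation names on a probe set of 1 gene, 7 were tested. In each genotype 1 rose and 1 fell, a count of these genes and not of the whole family. Over all tested, 18.1% rose and 16.1% fell in Col-0, and 19.9% rose and 17.8% fell in hai1-2. PUB43 rose by 0.52 ± 0.15 in Col-0 (adjusted p = 0.0161) and 0.64 ± 0.15 in hai1-2 (adjusted p = 0.00424, limma). PUB26, which acts in immune and cold signalling, changed by -0.88 ± 0.23 in Col-0 (adjusted p = 0.0104) and -1.48 ± 0.23 in hai1-2 (adjusted p = 2.3e-04). In Col-0 the call of PUB43 was lost without Col-0 stress replicate 1 (adjusted p = 0.0581), without Col-0 control replicate 2 (0.0655), and with the 6 arrays of Col-0 alone (0.0512). That of PUB26 was lost without Col-0 stress replicate 2 (0.0511) and without Col-0 control replicate 2 (0.050). The 5 that did not pass include PUB22 and PUB23, close relatives that act together in drought and immune responses. None of the 8 met both limits of the rule.

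The genes next to the 12 on the chromosomes were examined as a further property that the rule did not use, taking the order of protein-coding genes in TAIR10.1. Of 24 neighbours, 14 could be read by their own probe set and 13 passed the filter, AT1G60200 beside PUB19 by 2 probe sets. Of the 14 probe sets tested, 3 rose and 1 fell in Col-0, and 1 rose and 1 fell in hai1-2, against the 18.1% and 16.1%, and 19.9% and 17.8%, of all tested. None of the neighbours met both limits, and the 12 genes are not neighbours of each other. AT2G21580, next to APL4, rose by 0.56 in Col-0 (adjusted p = 0.0163) and 0.69 in hai1-2 (adjusted p = 0.00443). AT1G67910, next to AT1G67920, changed in the opposite direction to it, by -1.64 in Col-0 and -2.07 in hai1-2 (adjusted p = 5.9e-04 and 7.3e-05, limma). The 2 other rises in Col-0 were AT1G57600 beside AT1G57590, at 0.57 (adjusted p = 0.0441), and 1 of the probe sets of AT1G60200, at 0.85 (adjusted p = 0.00182), while its other probe set stood at -0.09 (adjusted p = 0.814).

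Other stress pathways could be read only in part, since the annotation names few of their genes. None of the 12 genes is in the lists that were examined. Of 39 loci of ABA and drought response, 2 were measured, and both rose in both genotypes. Of all tested, 18.1% rose in Col-0 and 19.9% in hai1-2. ALDH7B4, an aldehyde dehydrogenase, rose by 1.96 ± 0.14 in Col-0 and 2.31 ± 0.14 in hai1-2, and AT4G25580 by 1.74 ± 0.38 and 1.17 ± 0.38. The signals of AT4G25580 were weak: 1.7 to 21.3 on control and 40.7 to 78.7 on stressed arrays in Col-0. In hai1-2 they were 12.8 to 58.7 and 70.4 to 107.7. On the control arrays alone AT4G25580 lay below the filter, so it entered the test only through its stressed signals. ALDH7B4 was above the lower limit on control plates, at a mean signal of 1731 ± 273 in Col-0 and 1622 ± 243 in hai1-2 (SD, n = 3). Of 12 heat shock loci 1 was measured, the small heat shock protein ATHSP22.0, which rose by 3.48 ± 0.33 and 3.35 ± 0.33. Of 11 senescence loci 2 were measured, WRKY53 and SAG101, and neither passed in either genotype, and nor did PDF1.2, the 1 measured of 7 jasmonate and wound loci. No locus of the 7 for raffinose family sugars was measured.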

How the data were processed

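Transcripts were measured on 12 one-colour Affymetrix arrays, 1 per sample, with groups and experiment numbers from the sample titles. The authors deposited linear signal intensities from MAS5, per the submitters' processing notes. Its version, its target for scaling and any filter are not stated there. After 2% of probe sets were trimmed at each end, the mean intensity was the same on every array to 4 digits, so no normalization was added. Array number limits the precision.

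Genes were named through the platform annotation and TAIR10.1 of RefSeq, used for names and gene order only. No sequence is shown. The 12 genes and the lists were chosen with earlier results of these data known. For named genes, all 12 were to be described, with the nearest genes outside the limits. LEA genes were recognised by symbol or locus.

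Without 64 control probe sets and the lowest 25% of the others (5687, mean log2 below 5.67), 17059 were fitted as log2(value + 16) with limma 3.58.1 in R 4.3.3, with group means, trended variances and two-sided tests, and Benjamini-Hochberg adjusted p-values called under 0.05. All 12 genes passed the filter, AT4G02360 and SWEET4 only through their stressed arrays. Experiments were compared on the 6 stressed arrays. The fit was tested on simulated data for the stressed genotype comparison. There 67 of 100 changes of 1 on the log2 scale and 96 of 100 of 2 were called, with 7 false calls. Smaller changes, such as the differences of the 12 genes between stressed genotypes, were not simulated.

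Per the series' design text each experiment gave 1 sample to every group, so numbers pair samples. Deviations of same-numbered arrays correlated at 0.128 to 0.517 between genotypes at 1 water potential, and those of different numbers at -0.422 to 0.164. Between water potentials the numbers showed no such pairing, at -0.098 to 0.107 for the same number and -0.201 to 0.188 for different ones. Alternatives were other pseudocounts, filters, normalizations, variance settings, array weights, array subsets, 1 probe set per gene, the experiment as a block, each array left out, and other limits.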

Additional observations from a re-analysis of the deposited data

How the results depend on the processing

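In the comparisons of genotype and in the interaction, 0 genes passed under every alternative run, the other limits included. With the experiment as a replicate block the count at -1.2 MPa was 0, with a lowest adjusted p of 0.301, and the block changed no other recomputed call than those of SWEET1 and ALPHA-VPE given above. Under stress the median difference lay between 0.41 and 0.49 over the settings and between 0.38 and 0.56 with single arrays left out. With limits of 150 and 800 the rule gave 3 genes and with 250 and 500 it gave 24, and the median genotype difference on control plates was then 0.38 and -0.012. Between experiments, 0 genes passed with no filter, with no trend and among the 3 genes of the narrower limits, and 1 to 3 with single arrays left out, 1 without Col-0 stress replicate 2. With single arrays left out and no term for experiment, the difference of AT5G22460 ran from -0.15 to 0.61 and that of AT3G05640 from -0.0040 to 0.20. GAMMA-VPE in Col-0 stood at -0.049 with median centring, -0.028 with array weights and -0.064 to 0.15 with single arrays left out. The median interaction ran from 0.23 to 0.48 with single arrays left out. The causes were not tested. The count of genes was 13 with AT3G17520 kept, and 11 of the 12 met the limits after quantile normalization or median centring. The planned comparison of promoter motifs was not run.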
